A study of Homo sapiens with 7 samples.

Results

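Olfactory receptor (OR) genes encode G protein-coupled receptors that detect odorants. They form one of the largest human gene families, and most of them are transcribed only in olfactory sensory neurons, each of which expresses a single receptor. In other tissues they sit as clustered arrays of short, AT-rich genes in repressed chromatin, which makes them a place to count H3K4me1 intervals where little H3K4me1 is usually found. H3K4me1, monomethylation of lysine 4 of histone H3, marks enhancers and the flanks of promoters, and KMT2D is one of the methyltransferases that deposit it.

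The members described here were the 172 protein-coding genes of chromosome 11 whose GENCODE release 44 symbol is OR followed by a family number, a subfamily letter and a member number. They were set against the other 1145 protein-coding genes of the chromosome, out of 20033 protein-coding genes in all. The choice used the symbols and no measured value. ChIP-seq was carried out in SW1990, an established human pancreatic cancer cell line, carrying either a negative control shRNA (NC) or an shRNA that knocks down KMT2D (KMT2D-KD). KMT2D, EBF2 and H3K4me1 were each immunoprecipitated in both conditions, giving 6 ChIP libraries, with 1 further input library whose shRNA the labels do not give. Each target was sequenced once per condition, so no difference between NC and KMT2D-KD has a replicate check and no test of the knockdown could be made. KMT2D levels after the knockdown were not analysed here. Every range in brackets is a binomial or Poisson interval at 95% and covers counting error alone. These ranges treat genes and intervals as independent. Neighbouring OR genes lie close together and can share an interval, so genes are not replicates and the ranges can be too narrow. In such bulk libraries, an interval carried by a few cells and a weak one carried by all cells cannot be told apart.

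The H3K4me1 lists held 64843 NC and 92135 KMT2D-KD intervals, of which 4046 and 5090 lay on chromosome 11. The fold enrichments and p-values gave back a whole number of fragments at the summit for all of the chromosome 11 intervals in both lists. Counts at single summits were small. At the lowest expected background, 1.85 fragments in NC and 1.64 in KMT2D-KD, the weakest intervals of the chromosome rested on 8 and 7 fragments. Median summit counts on the chromosome were 14 in NC and 13 in KMT2D-KD. The number of reads in each library was not examined here, so these counts do not give the sequencing depth. H3K4me1 lay within 5 kb of 8 of 9 epithelial genes in NC and of all 9 in KMT2D-KD, among them KRT8, KRT18 and CDH1. Over all protein-coding genes the shares were 50.7% and 63.0%. The median body of the 9 was 32.9 kb. EPCAM had none in NC.

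In sequence, the OR genes were short and poor in GC. The median OR gene body was 1082.5 bases long, against 21466 bases for the other genes of the chromosome. A window of 5 kb on either side of the gene body had a median GC content of 37.5% for OR genes and 46.4% for the others, and 149 of the 172 OR windows were under 40% GC. RefSeq promoters (GRCh38.p14, 250 bases before to 50 after the gene's start) were given for 133 of the OR genes. Their median GC content was 37.0% and their median number of CG dinucleotides was 1, and 36 of them (27.1%) held none. The promoters of the other chromosome 11 genes had a median GC content of 62.7% and 23 CG dinucleotides, and 1.99% of them held none. The letters CCCNNGGG, the core of the motif bound by EBF proteins, which reads the same on both strands, occurred in 10 OR promoters (7.52%), in 23.5% of the other chromosome 11 promoters and in 21.8% of all promoters given.

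The sequences below lie under 4 of the H3K4me1 intervals that the results turn on. Each is 151 bases of hg38 centred on a summit, printed 5′ to 3′ on the forward strand, with CG dinucleotides in capitals. The strongest interval of any OR gene in NC had its summit in chr11:124301941-124302091, in intergenic sequence past the 3′ end of OR8D1. The strongest interval before OR10D3 in NC lay at chr11:124178075-124178225 (intergenic). The NC interval at the 5′ end of OR8D1 had its summit in chr11:124315200-124315350, just before the gene, and the strongest interval inside an OR coding exon was that of OR2AT4 in KMT2D-KD, at chr11:75088768-75088918.
OR8D1, past the 3′ end: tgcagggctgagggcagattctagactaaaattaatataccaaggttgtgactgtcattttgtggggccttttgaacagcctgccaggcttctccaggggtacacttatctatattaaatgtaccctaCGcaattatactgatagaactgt
OR10D3, before the 5′ end: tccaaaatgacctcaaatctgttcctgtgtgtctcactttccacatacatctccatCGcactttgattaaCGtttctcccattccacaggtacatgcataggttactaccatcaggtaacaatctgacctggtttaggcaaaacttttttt
OR8D1, at the 5′ end: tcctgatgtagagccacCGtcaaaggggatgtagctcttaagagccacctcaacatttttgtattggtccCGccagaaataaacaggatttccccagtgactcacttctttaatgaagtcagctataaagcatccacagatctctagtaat
OR2AT4, coding exon: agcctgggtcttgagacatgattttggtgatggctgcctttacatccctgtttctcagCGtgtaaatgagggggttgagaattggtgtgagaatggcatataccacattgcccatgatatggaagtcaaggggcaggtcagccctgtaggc
These sites held 1 or 2 CG dinucleotides in 151 bases, and none of the 4 contained CCCNNGGG. Over the summits of all intervals in OR windows, the number of CG dinucleotides ran from 0 to 4. The KMT2D-KD summits at OR52N2 and at another OR8D1 interval did contain CCCNNGGG. Summits outside OR windows were not examined, so these values have no reference.

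The first comparison asked how many OR genes had H3K4me1 nearby. An interval lay within 5 kb of 7 OR genes in NC, or 4.07% (1.65 to 8.21), and of 12 in KMT2D-KD, or 6.98% (3.66 to 11.9). Over all protein-coding genes the shares were 50.7% in NC and 63.0% in KMT2D-KD. Among the other genes of chromosome 11, 647 had an interval in NC, or 56.5% (53.6 to 59.4), and 774 in KMT2D-KD, or 67.6% (64.8 to 70.3). The counting intervals of OR and other genes lay far apart in both conditions. The 228 OR genes on other chromosomes gave 14 in NC, or 6.14% (3.40 to 10.1), and 20 in KMT2D-KD, or 8.77% (5.44 to 13.2), which overlapped the values of the chromosome 11 OR genes.

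The other genes are longer and richer in GC, and subsets of them were therefore counted as well. Of the 346 other genes with a body under 10 kb, 38.7% (33.6 to 44.1) had an interval in NC and 49.1% (43.7 to 54.5) in KMT2D-KD. Of the 231 other genes whose window was under 40% GC, 52.4% (45.7 to 59.0) had one in NC and 60.2% (53.5 to 66.5) in KMT2D-KD. Both sets remained far above the OR genes. Only 37 other genes were both short and low in GC. Of these, 3 had an interval in NC, or 8.11% (1.70 to 21.9), and 4 in KMT2D-KD, or 10.8% (3.03 to 25.4). The 138 OR genes in the same class gave 3 in NC, or 2.17% (0.451 to 6.22), and 5 in KMT2D-KD, or 3.62% (1.19 to 8.25). These counting intervals overlapped, so in these lists and with 37 genes no difference between OR genes and short, low-GC other genes was detectable. The 37 included HBB, PTH, FSHB, TRIM64 and CASP1, and 5 of them carried OR pseudogene symbols. Without those 5, the shares of the remaining 32 were 9.38% (1.98 to 25.02) and 12.5% (3.51 to 29.0). Those 5 lie inside the OR clusters, as do HBB, RBMXL2, TRIM48, TRIM51, GLYATL1B and TMEM225. None of these genes had an interval within 5 kb in either list. The class was not counted without all of them, so part of it shares its surroundings with the OR genes. This class was added after the values were seen.

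**Figure D1:**
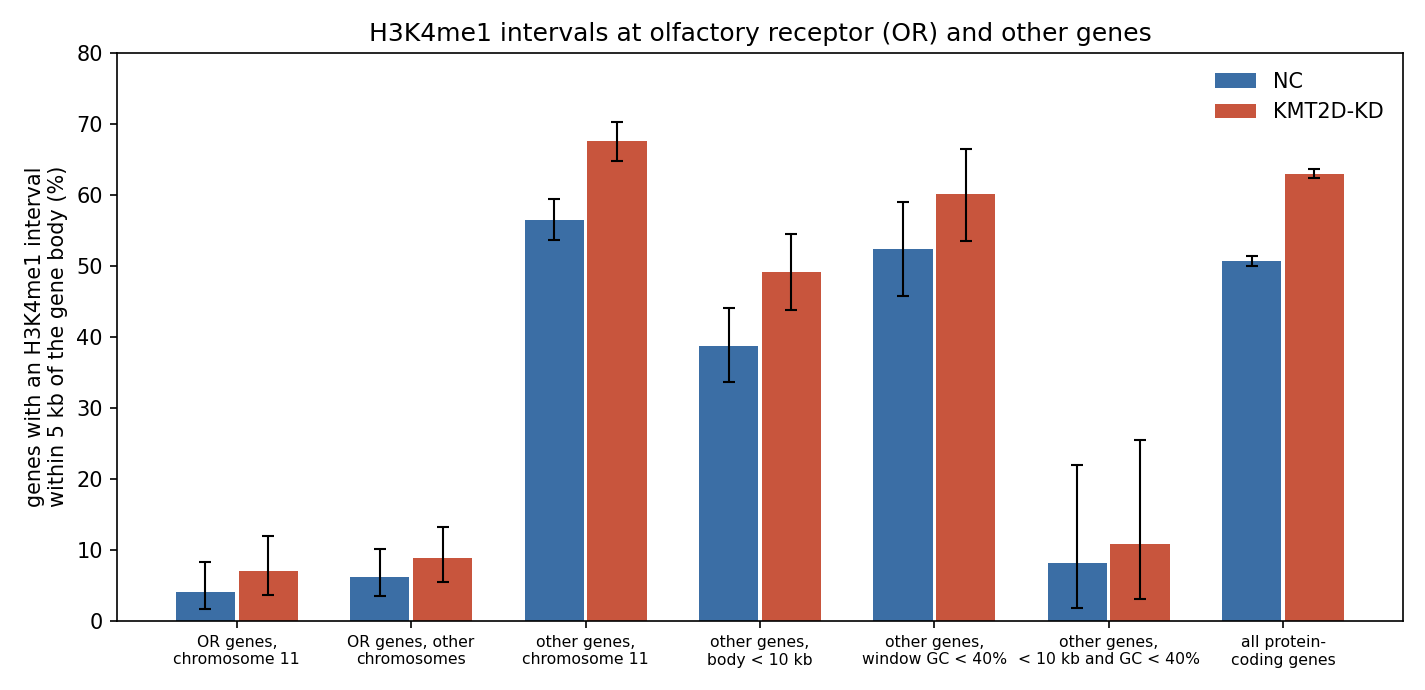
Share of genes (%) with an H3K4me1 interval within 5 kb of the gene body, in NC (blue) and KMT2D-KD (red); bars are shares and whiskers exact binomial intervals at 95%. The OR genes of chromosome 11 stand at 4.07% and 6.98%, near the OR genes of other chromosomes and the 37 short, low-GC other genes, and far below the remaining sets.

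Distance gave the same picture without a window. The median OR gene lay 139 kb from the nearest H3K4me1 interval in NC, or 114 kb in KMT2D-KD, whereas the median other gene of the chromosome lay 1.14 kb away in NC and overlapped one in KMT2D-KD. More than 100 kb separated 106 OR genes (61.6%) from any interval in NC and 91 (52.9%) in KMT2D-KD, against 9.26% and 5.85% of the other genes. The 37 short, low-GC other genes lay between, with medians of 87.2 kb in NC or 64.3 kb in KMT2D-KD. The farthest OR gene was OR4C6, at 1126264 bases in NC or 1240233 in KMT2D-KD. Few genes lay close to the limit of 5 kb. Just inside it were OR8D2, at 3902 bases in NC and 4265 in KMT2D-KD, and OR52N2, at 3153 bases in KMT2D-KD. Just outside it were OR10V1, at 5184 bases in NC, and OR5A1, at 5084 in KMT2D-KD. OR51B6 lay at 6385 bases in NC and 5950 in KMT2D-KD. OR51E2, a receptor also known from prostate, lay at 6173 and 6896.

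**Figure D2:**
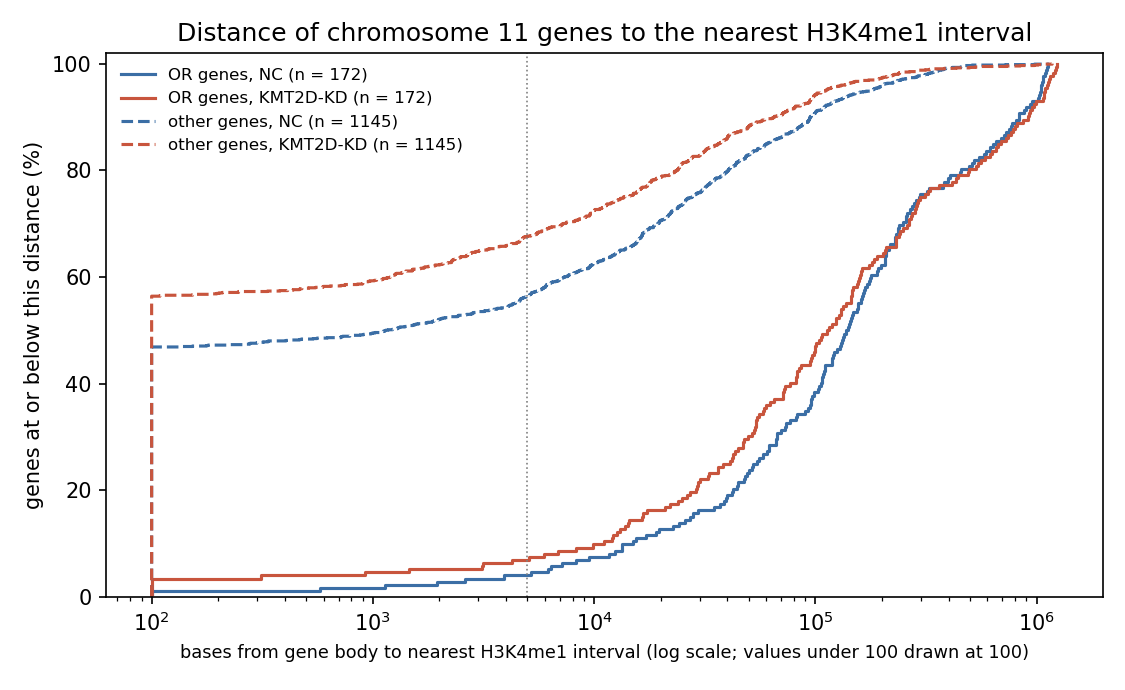
Cumulative share of genes (%) against the bases from the gene body to the nearest H3K4me1 interval (log axis, values under 100 drawn at 100) for the 172 OR genes (solid) and 1145 other genes (dashed) of chromosome 11; the dotted line marks 5 kb. The OR curves pass 50% at 139 kb for NC and at 114 kb for KMT2D-KD, while the other genes are above 50% at the dotted line in both conditions.

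Counted per length of sequence, the merged OR windows spanned 2.45 Mb and held 14 intervals in NC, or 5.72 per Mb (3.13 to 9.60), and 27 in KMT2D-KD, or 11.03 per Mb (7.27 to 16.1). The windows of other genes held 38.4 per Mb (36.9 to 39.8) in NC, and in KMT2D-KD 49.5 (47.9 to 51.2), and those under 40% GC 24.2 and 27.0. The sequence outside all windows held 21.3 per Mb (20.2 to 22.5) in NC, and in KMT2D-KD 25.2 (23.9 to 26.5). The OR windows therefore held fewer intervals per Mb than sequence away from coding genes as well. In the 37 short, low-GC other genes the densities were 8.61 per Mb (2.80 to 20.1) and 10.3 (3.79 to 22.5), against 3.56 (1.305 to 7.74) and 4.74 (2.05 to 9.34) for the OR genes of the same class, with overlapping ranges. In the OR windows a median of 5.90% of the 31-base words occurred again on chromosome 11, against 7.71% for the other genes. A few OR genes do have near-identical copies, with OR51A2 highest at 69.5% of the words in its body. How multiply mapped reads were treated is not given in the sources used here, and its part in the result was not tested.

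The OR genes fell into 7 clusters when neighbours less than 1 Mb apart were joined, and the clusters differed. The largest, at 4.37 to 7.94 Mb, held 67 OR genes, including all 55 class I genes (families 51 to 56, the fish-like receptors). Its OR windows had 6 NC and 4 KMT2D-KD intervals, at 3 and 4 of the genes. The 51 OR genes at 54.6 to 57.0 Mb had no interval within 5 kb in either list. Their windows spanned 0.613 Mb, so a count of 0 allows up to 4.90 intervals per Mb in each condition. The 7 OR genes near 48.2 Mb and the 3 near 49.95 Mb also had none, but their windows are so short that densities of up to 39.1 and 90.9 per Mb are allowed. The 21 OR genes at 58.0 to 59.7 Mb had none in NC and 3 intervals in KMT2D-KD, at 3 genes.

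The 22 OR genes at 123.8 to 124.6 Mb stood apart from these. Their windows held 6 intervals in NC, or 20.8 per Mb (7.64 to 45.3), and 10 in KMT2D-KD, or 34.7 per Mb (16.6 to 63.8). Both counting intervals included the densities of other gene windows. The intervals lay at 3 genes in NC and 4 in KMT2D-KD, and OR8D1 and OR10D3 carried all 6 in NC and 9 of the 10 in KMT2D-KD. OR2AT4, which stands alone near 75.1 Mb, had 2 NC and 10 KMT2D-KD intervals. By class, the windows of the 55 class I genes held 6 NC and 3 KMT2D-KD intervals, while those of the 117 class II genes held 8 and 24. In NC the 2 classes overlapped, at 7.17 per Mb (2.63 to 15.6) for class I and 4.97 (2.15 to 9.79) for class II. In KMT2D-KD they were 3.58 (0.739 to 10.5) and 14.9 (9.55 to 22.2), again with overlapping intervals, and 10 of the 24 class II intervals were those of OR2AT4.

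**Figure D3:**
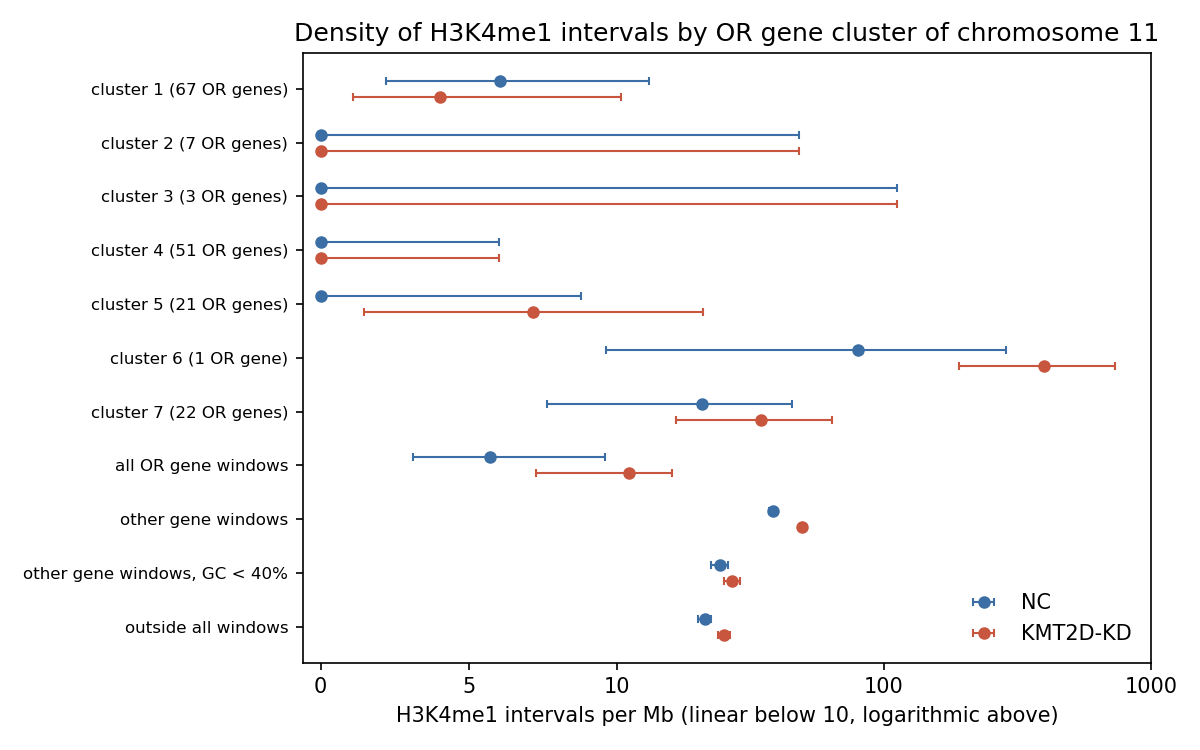
H3K4me1 intervals per Mb (axis linear below 10 and logarithmic above) in the merged 5 kb windows of OR genes, by cluster in order along chromosome 11, with other sequence below; points are NC (blue) and KMT2D-KD (red) and bars exact Poisson intervals at 95%. Clusters 2, 3 and 4 stand at 0 in both conditions, whereas cluster 7 reaches 20.8 and 34.7 per Mb and OR2AT4 (cluster 6) lies highest.

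The cluster at 54.6 to 57.0 Mb also held the longest stretch of chromosome 11 without an H3K4me1 interval in NC. It ran over 2.33 Mb (chr11:54535938-56870592, hg38) and covered 50 OR genes and 4 other coding genes at a GC content of 36.6%. The same bases were the longest stretch free of intervals in both lists together. In KMT2D-KD the stretch measured 2.38 Mb (chr11:54525075-56906427) and came second, after 2.98 Mb at chr11:20374841-23358920, which held no OR gene. Other long free stretches without OR genes were as poor in GC, for example 1.23 Mb at 36.2% GC in NC (chr11:81450692-82679683).

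Of the 172 OR genes, 6 had an interval in both conditions, 1 in NC alone, 6 in KMT2D-KD alone and 159 in neither. Over all protein-coding genes, 2.99% had an interval in NC alone and 15.3% in KMT2D-KD alone, and among the other chromosome 11 genes 2.88% and 14.0%. The OR shares were 0.581% (0.0147 to 3.20) and 3.49% (1.29 to 7.44), which overlapped each other. The log2 ratio of intervals, KMT2D-KD over NC, was 0.95 (−0.03 to 1.99) in OR windows and 0.37 (0.30 to 0.44) in the windows of other genes, so within 5 kb the ratio at OR genes could not be told from 0 or from that of other genes by counting error. With narrower windows it was 1.5025 (0.09 to 3.13) within 1 kb and 1.81 (0.14 to 3.87) in the gene body alone, on fewer intervals. These ranges lay above 0, but OR2AT4 held 6 of the 14 KMT2D-KD intervals in gene bodies and 0 of the 4 in NC. Leaving it out was not tried with these windows. With only the 64843 KMT2D-KD intervals of highest −log10 q, as many as in NC, an interval lay near 2.91% of OR genes (0.9505 to 6.65) in KMT2D-KD against 4.07% in NC, with 4 genes in NC alone, 2 in KMT2D-KD alone and 3 in both. The KMT2D-KD density was then 6.54 per Mb, against 5.72 in NC, and the log2 ratio was 0.19 (−0.94 to 1.34) in OR windows and −0.067 (−0.14 to 0.01) in the windows of other genes. Leaving out OR2AT4 took the OR counts to 12 and 17, a log2 ratio of 0.50 (−0.65 to 1.70), and the KMT2D-KD density from 11.03 to 7.02 per Mb.

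The genes with an interval in both conditions were OR51B5, OR52E6, OR2AT4, OR10D3, OR8D1 and OR8D2. OR8D1 carried the strongest NC interval (chr11:124301335-124302734), with 20 fragments at the summit, 6.05-fold enrichment at −log10 q 8.55. In KMT2D-KD an interval with the same end (chr11:124301664-124302734) had 16 fragments, 6.21-fold enrichment at −log10 q 7.99. Both lay 97 bases beyond the 3′ end of the gene, with summits 13083 and 13054 bases from its 5′ end. OR8D1 further had an interval in its body in both conditions, with summits 7620 and 7608 bases from the 5′ end. In NC this was the weakest interval of all OR windows, at −log10 q 1.32 and 11 fragments. At the 5′ end, NC had an interval with its summit 176 bases before the gene and 9 fragments, while the KMT2D-KD interval there lay 94 bases away, inside the gene, with 10 fragments. Leaving out genes with OR symbols, pseudogene symbols included, the nearest coding gene to these sites, VWA5A, was at least 152841 bases distant.

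OR10D3 had 3 NC and 4 KMT2D-KD intervals, all but one before the gene. The strongest were chr11:124177543-124178817 in NC, with 16 fragments, 4.90-fold enrichment at −log10 q 5.60, and chr11:124176983-124179193 in KMT2D-KD, with 16 fragments, 4.36-fold enrichment at −log10 q 5.17. All 3 NC intervals overlapped a KMT2D-KD interval. The one nearest the gene ended 577 bases before it in NC, with 12 fragments, and reached over its 5′ end in KMT2D-KD, with 14. OR8D2 owed both its calls to the intervals at the 5′ end of OR8D1.

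OR2AT4, known as a receptor for a synthetic sandalwood odorant and described in skin, showed the widest gap between conditions. In NC it had 1 interval on either side of the gene and none in the body. In KMT2D-KD it had 10, of which 6 lay in the body and 2 of those overlapped its coding exon. In both conditions, the intervals in its body or past its 3′ end also overlapped the long non-coding RNA gene ENSG00000284722. The strongest lay past the 3′ end in both conditions, in NC with 19 fragments at −log10 q 7.26, and in KMT2D-KD with 21 fragments at −log10 q 8.78. A further KMT2D-KD interval past the 3′ end had 17 fragments at −log10 q 7.08, the third highest of its list in OR windows. The interval in the coding exon (chr11:75088632-75088999) had 15 fragments, 4.78-fold enrichment at −log10 q 5.58. The weakest, chr11:75081962-75082379, had 11 fragments at −log10 q 1.61. In the one with 17 fragments 53.6% of the 31-base words occurred again on the chromosome, and in another KMT2D-KD interval 54.5%.

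OR2AT4 was the only OR gene with at least 8 more intervals in KMT2D-KD than in NC, a size taken from its own counts. Among the other genes, 16 of 1145 (1.397%) showed such an excess, as did 1 of the 551 with a body under 20 kb, CLCF1. In the other direction, 5 of the 1145 other genes and 0 OR genes had at least 8 more intervals in NC. SLCO2B1, the organic anion transporter gene next to OR2AT4, had 1 interval within 5 kb in NC and 6 in KMT2D-KD. These counts were not separate from those of OR2AT4. The NC interval was counted for both genes, as were the KMT2D-KD intervals before the 5′ end of OR2AT4. Whether the change at OR2AT4 belongs to the gene or to its neighbourhood was not tested.

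**Figure D4:**
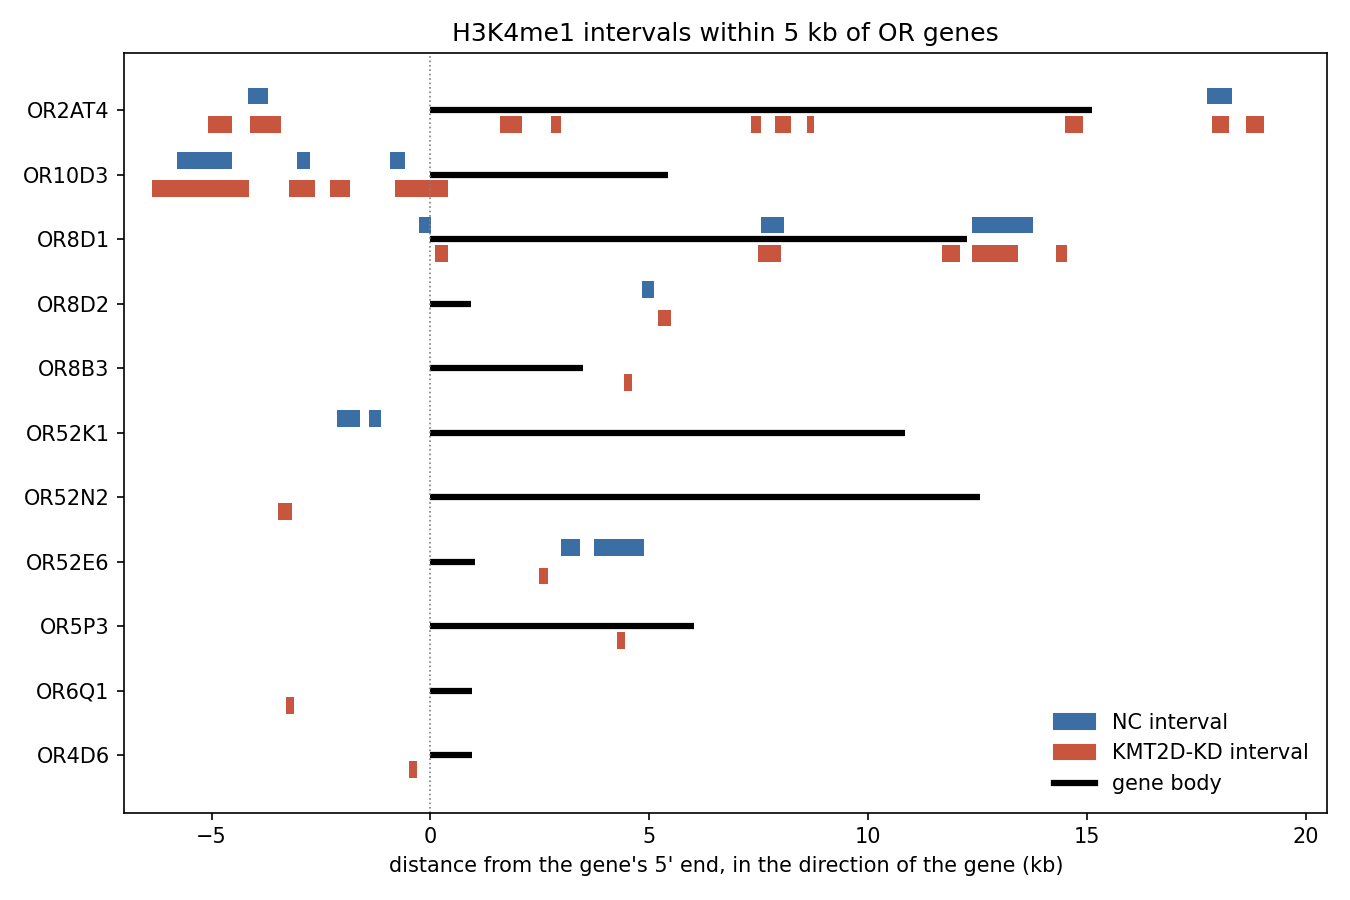
H3K4me1 intervals (NC blue, above each gene; KMT2D-KD red, below) within 5 kb of 11 OR genes, by distance from the gene's 5′ end in the direction of the gene (kb), with gene bodies as black lines; OR51B5 and OR9Q1, whose gene records are far longer than the others, are left out. OR2AT4 has 10 KMT2D-KD intervals against 2 in NC, while OR10D3 and OR8D1 carry intervals at matching places in both conditions.

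The remaining calls were weak or, like those of OR2AT4, overlapped other genes. OR51B5 had 2 NC and 1 KMT2D-KD intervals, none overlapping between conditions, with 8 to 13 fragments. Its gene record runs over 202209 bases, and these intervals lay in introns it shares with HBG2 and HBE1, the fetal and embryonic globin genes, 451 and 1800 bases from its coding region in NC and KMT2D-KD. OR52E6 had 2 NC and 1 KMT2D-KD intervals, all in an intron of TRIM5, an antiviral restriction factor gene. The stronger of the NC intervals there had 21 fragments, 4.68-fold enrichment at −log10 q 6.57. TRIM5 itself had 7 NC and 4 KMT2D-KD intervals.

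In KMT2D-KD alone, OR5P3 had an interval in an intron with 15 fragments at a fold enrichment of 3.27. It also lay in introns of long non-coding RNA genes. OR9Q1 had 2 in introns with 9 fragments each, the nearer of them 120500 bases from its coding region and also in a long non-coding RNA intron. OR4D6 had one 313 bases before the gene and OR8B3 one 923 bases past its 3′ end, with 9 fragments each. Beyond these named by distance, and chosen after their values were seen, OR52N2 had one KMT2D-KD interval with 13 fragments inside TRIM5, and OR6Q1 shared one of those of OR9Q1. OR52K1, also chosen after its values were seen, was the only gene called in NC alone, with 2 intervals of 15 and 11 fragments before the gene, the stronger at a −log10 q of 4.55. Both lay in an intron of a long non-coding RNA gene. None of the genes called in 1 condition alone had an interval with a −log10 q of 5 or more.

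An interval came within 1 kb of the 5′ end of OR10D3 and OR8D1 in NC, and of OR4D6, OR10D3 and OR8D1 in KMT2D-KD. An interval overlapped the gene body of 2 OR genes in NC (OR51B5 and OR8D1) and of 6 in KMT2D-KD (also OR5P3, OR9Q1, OR2AT4 and OR10D3), or 1.16% and 3.49%, against 46.7% and 56.2% of the other chromosome 11 genes. Within 5 kb of the coding region alone, 6 and 10 OR genes were counted.

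As a group, the intervals in OR windows lay within the range of their lists. The 14 NC intervals had 9 to 21 fragments, fold enrichments of 2.55 to 6.05 and a median −log10 q of 3.74, against 3.71 over chromosome 11. The 27 KMT2D-KD intervals had 8 to 21 fragments, fold enrichments of 2.68 to 6.21 and a median −log10 q of 3.16, against 4.21. Of the 14 NC intervals, 7 overlapped a KMT2D-KD interval (counting interval 23.0% to 77.0%), against 71.3% on the chromosome, a value inside that range. Of the 27 KMT2D-KD intervals, 7 (25.9%, 11.1 to 46.3) overlapped an NC interval, against 53.1%, which lay above it. Without OR2AT4, the share of the remaining 17 was 29.4% (10.3 to 55.96), a range that included 53.1%. The range also included it without OR windows that overlap those of other coding genes, at 35.7% (12.8 to 64.9). With summits inside the window the share was 24.0% (9.36 to 45.1), again below 53.1%. The gap from the chromosome therefore did not hold in every setting. Counted as shared when within 1 kb of an interval in the other list, the OR values were 78.6% in NC and 55.6% in KMT2D-KD. The chromosome was not counted in this looser way, so these values cannot be set against its 71.3% and 53.1%. The 7 overlapping intervals of each list were those of OR2AT4 (2), OR10D3 (3) and OR8D1 (2).

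**Figure D5:**
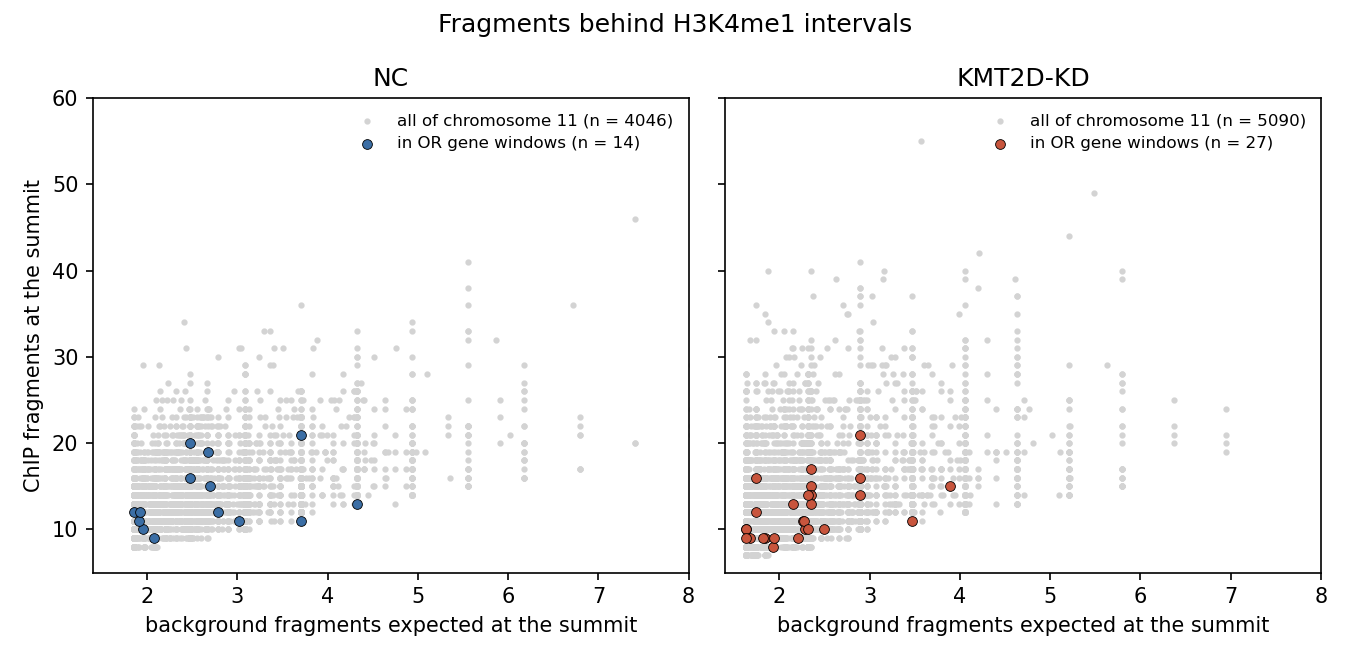
ChIP fragments at the summit against the background fragments expected there, for the H3K4me1 intervals in OR windows (coloured) over all those of chromosome 11 (grey), in NC and KMT2D-KD; 7 NC and 3 KMT2D-KD grey points lie beyond the axes. The OR intervals rest on 8 to 21 fragments.

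Of 70 other coding genes that lie between the OR genes, 36 had an interval within 5 kb in NC and 40 in KMT2D-KD, 35 of them in both, beside the 50.7% and 63.0% of all protein-coding genes. PPFIBP2, a liprin gene, had 14 in NC and 3 in KMT2D-KD, and ILK, integrin-linked kinase, and TAF10, a TFIID subunit gene, had 5 in each. Of 9 listed TRIM genes in or beside the clusters, 4 had an interval in both conditions, TRIM6 in KMT2D-KD alone and 4 in neither, among them TRIM48 and TRIM51, which lie within the stretch without intervals. TRIM3, which is not on that list but lies between OR genes, had 1 in KMT2D-KD alone. The beta-globin genes HBB, HBD and HBG1, which stand among the OR genes, had none, and the nearest to any of them lay 94118 bases from HBG1 in NC. The windows of 42 OR genes overlapped the window of another coding gene. Without these, the shares of the remaining 130 OR genes were 3.08% (0.845 to 7.69) in NC, and in KMT2D-KD 6.15% (2.69 to 11.8).

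Genes listed for olfactory signalling and OR gene choice, 20 in number, were counted in the same way. An interval lay within 5 kb of 14 of them in NC and 12 in KMT2D-KD, 11 in both, against 50.7% and 63.0% of all protein-coding genes, at a median body length of 49.5 kb. GNAL, the olfactory G protein subunit, had 3 NC and 10 KMT2D-KD intervals. CNGB1, a subunit of the olfactory cyclic nucleotide-gated channel, had 9 and 15, and ANO2, the calcium-activated chloride channel, 15 and 12. LHX2 and LDB1, which act at OR enhancers, had 1 and 4 NC intervals, and 1 and 5 KMT2D-KD intervals. ADCY3, the adenylyl cyclase of the cascade, had 2 in KMT2D-KD alone. EBF2, EBF3 and RTP2 had 1 each in NC alone, and EMX2, STOML3, EBF4, RTP1 and CNGA2 had none in either.

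No KMT2D or EBF2 interval lay within 5 kb of any of the 172 OR genes in either condition. These lists were short, with between 7 and 18 intervals on chromosome 11, and only 2 to 11 of the 1145 other genes had one, so a count of 0 of 172, which allows a share of up to 1.74%, does not set the OR genes apart from the others. The nearest EBF2 interval was 196 kb from OR4C46 in both conditions. The nearest KMT2D interval was 368 kb from OR6X1 in KMT2D-KD and 1341 kb from OR4C45 in NC.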

How the data were processed

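Chromatin immunoprecipitation and sequencing of KMT2D, EBF2 and H3K4me1 in SW1990 cells gave 6 deposited interval lists, 1 per ChIP library, and the input had no list of its own. The authors filtered reads for adapters, ambiguous bases and poor quality, and aligned the remainder with BWA. The submitters' processing notes also name MACS2, HOMER and hg38, with settings and versions not given in the sources used here. The deposited narrowPeak lists have 10 columns. For each interval the authors gave a fold enrichment at the summit, which is a ratio, and the deposited lists also hold −log10 p-values and −log10 q-values. The largest q-values in the H3K4me1 lists were 0.0497 in NC and 0.0498 in KMT2D-KD.

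Starts were turned to count from 1. OR genes and the lists of other genes were chosen with earlier results of these data known. Genes came from GENCODE release 44, on hg38. An interval was assigned to a gene when it overlapped the gene body widened by 5 kb, and windows were merged, without undetermined bases, for densities. Fragments were solved from the fold, taken as (fragments + 1) / (background + 1), and the Poisson p-value, to within 0.001 of a whole number. Shares carry exact binomial (Clopper-Pearson) and densities exact Poisson intervals at 95%, and limits for a count of 0 use 3 counts. With 1 library per condition no test between conditions was run. The genes named were those with an interval in both conditions, then those with one in the body or within 1 kb. The intervals named were the 5 of highest −log10 q in each list and the weakest of each. Other genes were named from fixed lists or, between OR genes, by their number of intervals. Repeated sequence was measured as 31-base words found again on chromosome 11 in either direction, since a repeat-masked genome was not used here. Computations used Python 3.11.15, numpy 2.4.6, pandas 2.3.3 and scipy 1.17.1, and the scripts were tested on simulated data. Alternatives were other windows, list thresholds and gene sets. The sequences of 2 summit sites, and the positions of the intervals over them, are not reported here.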

Additional observations from a re-analysis of the deposited data

How the results depend on the processing

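With 1 library per condition, the counts of intervals and fragments set the precision, and differences of a few OR genes or intervals were not detectable. No paired analysis was possible because each condition had 1 library per target and no result came from a test between groups. Of 110 alternative values of shares, densities and log2 ratios, 64 stayed within the counting interval of the reported value, 45 moved beyond it and 1 changed sign. The alternatives without OR2AT4, around the coding region and by GC content were chosen after seeing the data. Equal numbers of intervals left the NC values as reported. In 14 of 15 settings, the reported one included, OR genes lay below other genes with counting intervals apart. This held for shares and densities in both conditions. The exception was other genes that are both short and low in GC: 8.11% in NC and 10.8% in KMT2D-KD, 8.61 and 10.3 intervals per Mb and a log2 ratio of 0.26.

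For OR genes, the gene body alone gave 1.16% in NC and 3.49% in KMT2D-KD, and 25 kb on either side gave 14.0% and 18.6%. Requiring −log10 q from 5 upwards gave 2.33% in NC and 1.74% in KMT2D-KD, with 1.63 and 2.04 intervals per Mb. Equal numbers of intervals gave 2.91% and 6.54 per Mb in KMT2D-KD, and without OR2AT4 the KMT2D-KD density was 7.02 per Mb. The log2 ratio in OR windows moved beyond its interval in none of its alternatives, but its range lay above 0 with the gene body alone and within 1 kb. Of the gene-body intervals, OR2AT4 held 6 in KMT2D-KD and 0 in NC.

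For other genes, NC and KMT2D-KD shares were 46.7% and 56.2% with the gene body alone, 49.5% and 59.3% within 1 kb, 73.5% and 81.2% within 25 kb, 38.0% and 50.2% around the 5′ end, 51.1% and 61.7% around the coding region, 29.5% and 42.8% for −log10 q from 5 upwards, 38.7% and 49.1% with a body under 10 kb, and 52.4% and 60.2% under 40% GC. With equal numbers of intervals the KMT2D-KD share was 60.9%, the density 36.6 per Mb, and the log2 ratio turned to −0.067, fewer KMT2D-KD intervals being counted by construction. Densities per Mb in NC and KMT2D-KD were 11.4 and 18.6 for −log10 q from 5 upwards, 65.5 and 99.7 around the 5′ end, 46.1 and 71.5 with a body under 10 kb, and 24.2 and 27.0 under 40% GC. In the same order the log2 ratios were 0.71, 0.61, 0.63 and 0.16. The causes of these shifts were not tested, and 16 of 46 alternatives of other values also moved.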
